A study of Mus musculus with 9 samples.

Results

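Of the 206 probes on these arrays, 7 belong to a set of microRNAs known from neurons or lymphocytes that is described here. The rule that found them uses the probe names and takes every probe named for miR-7, miR-9, miR-124a, miR-128a, miR-128b, miR-181a, miR-181b or miR-181c, with any arm or copy suffix. The 7 found were miR-7 (probe miR7-1), miR-9 (miR9-1), miR-9* (miR9-1*, the opposite arm of that hairpin), miR-124a (miR124a-1), miR-128a (miR128a), miR-181a (miR181a) and miR-181b (miR181b-1), and no probe was named for miR-128b or miR-181c. The study asked whether mature microRNAs depend on DGCR8. Each of its 9 two-colour arrays compared 1 RNA with RNA of wild-type V6.5 mouse embryonic stem (ES) cells. The other RNA came from V6.5 ES cells with 1 disrupted Dgcr8 copy (heterozygous, 3 arrays from 2 RNA preparations), from ES line 1 or line 2 with both copies disrupted (homozygous knockout, 2 arrays each), or from the irradiated mouse embryonic fibroblasts used as feeder layer (2 arrays). Per the series text, the ES cells had been cultured on feeders and moved off them before RNA was taken, and each knockout line was hybridised in duplicate. Values are log2 ratios of a sample's own RNA over wild-type ES cells, on the scale set by control RNAs added in equal amount, and that direction is likely rather than stated.

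MicroRNAs are cut from hairpins in longer transcripts. The nuclease Drosha makes the first cut together with DGCR8, which binds the RNA, and Dicer then releases a duplex with a mature strand. A mature microRNA finds its targets mainly through its seed, bases 2 to 8. MiR-124a is abundant in neurons and represses transcripts of other cell types, miR-9 acts in neural progenitors, miR-128 is enriched in brain, and miR-7 is made in brain and endocrine cells. MiR-181 is best known from lymphocytes, where it sets the sensitivity of T cells to antigen, and is also made in many other tissues.

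The mature sequences show which of these microRNAs share a seed. RefSeq (GRCm38.p6) held a mature sequence for 6 of the 7 probes, printed 5′ to 3′ with the seed in capitals and the place of the gene copy that was read.
miR-7a-5p (Mir7-1, chr13:58392841-58392863, minus strand): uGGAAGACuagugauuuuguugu
miR-9-5p (Mir9-1, chr3:88215613-88215635, plus strand): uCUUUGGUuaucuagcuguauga
miR-9-3p (miR-9*, Mir9-1, chr3:88215652-88215673, plus strand): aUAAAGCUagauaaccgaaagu
miR-128-3p (Mir128-1, chr1:128202404-128202424, plus strand): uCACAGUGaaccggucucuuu
miR-181a-5p (Mir181a-2, chr2:38852741-38852763, plus strand): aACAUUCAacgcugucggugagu
miR-181b-5p (Mir181b-1, chr1:137966650-137966673, plus strand): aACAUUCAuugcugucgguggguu
MiR-181a and miR-181b share the seed ACAUUCA, which 4 mature names of the RefSeq table carry (miR-181a to miR-181d). Counted from 1 at the 5′ end, and with the base of miR-181a first, they differed over their 23 shared positions by 3 substitutions, A9U, C10U and A21G. The other 4 sequences each have a seed of their own among these microRNAs. Since the mature sequence of miR-7a, miR-128, miR-181a or miR-181b is made from 2 genes and that of each miR-9 arm from 3, a probe cannot tell the gene copies apart.

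The hairpins that DGCR8 binds are shown for the loci of which both arms were on the array. Mature arms are in capitals, on the plus strand of GRCm38.p6.
Mir9-1, chr3:88215598-88215686: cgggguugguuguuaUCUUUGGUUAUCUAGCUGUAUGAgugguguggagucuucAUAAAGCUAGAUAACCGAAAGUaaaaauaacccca
Mir181a-1, chr1:137966455-137966541: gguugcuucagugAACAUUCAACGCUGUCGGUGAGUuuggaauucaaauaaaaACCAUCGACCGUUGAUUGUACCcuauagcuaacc
The later arm of Mir181a-1 was long called miR-213, a name that RefSeq lists as a synonym of this gene. Mir181b-1 begins 97 bases after the Mir181a-1 hairpin ends, and on chromosome 2 the second copies, Mir181a-2 and Mir181b-2, are 1019 bases apart.

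The arrays held values for 84 to 133 of the 206 probes, and 195 probes matched a mouse microRNA gene. A probe entered the tests when it had values on at least 2 heterozygous arrays, on at least 1 array of each line and on at least 1 feeder array, which left 87. Spot intensities were not analysed here. How far a spot stood above background is therefore unknown, and precision is limited by the number of arrays. No label ties the arrays of a line or group to separate cultures. Except where the lines are compared, the arrays of each knockout line and of the feeders were averaged before the tests. Those p-values therefore reflect the spread of the heterozygous arrays, which may be technical, and that between the line means. The spread between duplicate arrays of a line or of the feeders does not enter them. In bulk RNA of this kind, fewer cells of a type and less of a microRNA per cell cannot be told apart. The feeder arrays matched their label: the 8 tested ES cell microRNAs of the mir-290 cluster all fell in feeders (median -7.28), and 6 of 7 tested fibroblast microRNAs rose (limma). Of the 87, 36.8% were called lower in feeders and 36.8% higher. The tested ones were 8 of 12 listed ES cell probes and 7 of 16 listed fibroblast probes.

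Values were present for 5 of the 7 probes on heterozygous arrays, for all 7 on at least 1 knockout array and for 4 on feeder arrays. Each array also carried wild-type RNA. A value is thus a ratio of 2 RNAs and does not show that the microRNA was present in the named cells. MiR-124a and miR-7 had values on all 9 arrays. MiR-181b had 7, missing on heterozygous replicates 1 and 3, and miR-181a had 6, missing on heterozygous replicate 3 and on replicate 1 of each knockout line. MiR-128a had 6 values and none on feeder arrays or on heterozygous replicate 1. MiR-9 had 1 value, on replicate 2 of line 1, and miR-9* had 2, there and on replicate 1 of line 2. Presence differed with the dye: replicate 2 of each group had its own RNA in channel 1, and these 4 arrays held 21 of 28 possible values of the 7 probes (75.0%), against 19 of 35 (54.3%) on the 5 arrays of the other orientation. Over all mouse probes the shares were 61.4% and 47.2%. A missing cell may be a dim or a rejected spot, and the rule behind it is not given in the sources used here. Only miR-124a, miR-7 and miR-181a passed the filter. The other 4 are described by their values, and where it is said so by a fit without the filter.

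**Figure D1:**
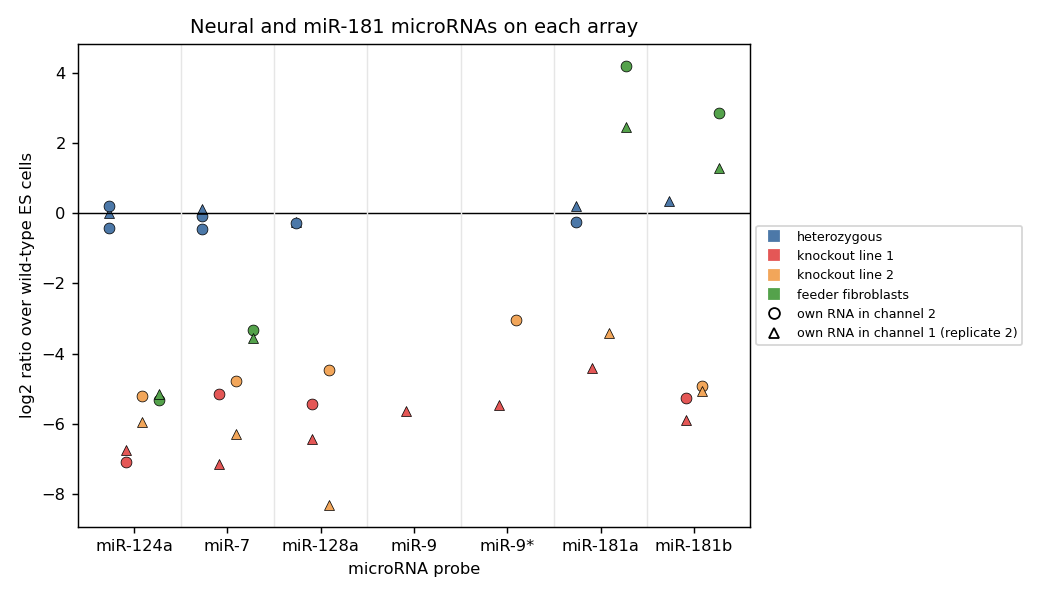
Log2 ratio over wild-type ES cells (vertical axis) of each microRNA probe (horizontal axis) on every array that held a value; colours are the groups and triangles mark the arrays with the sample's own RNA in channel 1. Heterozygous values lie near 0, all 21 knockout values lie below -3, and in feeders miR-181a and miR-181b lie above 0 where miR-124a and miR-7 lie below it.

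Homozygous knockout cells were compared with wild type to see how each ratio changed with both Dgcr8 copies disrupted. Without spot intensities, a knockout signal at background cannot be told from a low one. The folds and ranks below therefore do not grade dependence on DGCR8. All 21 values of the 7 probes on the 4 knockout arrays lay below 0, between -8.31 and -3.06, with a median of -5.43. Over all mouse probes 414 of 432 values on these arrays did (95.8%). The 3 tested microRNAs all fell (limma, adjusted p at or below 9.05e-05), where 89.7% of the 87 tested microRNAs were called lower. These directions rest on the control RNA scale. With each array centred on its own median, which moved the median knockout ratio of all tested microRNAs from -5.98 to 0.50, no member was called lower, miR-181a was called higher (2.56), and miR-124a (0.24) and miR-7 (0.64) were not called. At that setting 39 of the 87 were called higher and 17 lower.

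MiR-124a, the neuronal microRNA, had ratios of -7.08 and -6.73 on the arrays of line 1 and of -5.19 and -5.94 on those of line 2. All 4 lie far below the heterozygous values of -0.42, 0.01 and 0.21, and the lines do not overlap. The mean over lines was -6.24 ± 0.95 (SD, n = 2 lines; limma adjusted p = 4.52e-06), a 75.4-fold reduction. It stood 38th from the lowest of the 87 tested microRNAs, close to their median.

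MiR-7, of brain and endocrine cells, gave -5.16 and -7.14 in line 1 and -4.78 and -6.28 in line 2, against heterozygous values of -0.09, 0.11 and -0.46. The lines overlap, and in both of them replicate 2 is the lower array. The mean was -5.84 ± 0.44 (SD, n = 2 lines; limma adjusted p = 1.46e-06), or 57.2-fold lower than wild type.

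MiR-181a was the least reduced of the 3 that were tested. It had a single value per line, -4.42 in line 1 and -3.42 in line 2, both on arrays with the sample's own RNA in channel 1. Its mean of -3.92 ± 0.71 (SD, n = 2 lines) was a 15.1-fold reduction (limma adjusted p = 9.05e-05), and it ranked 67th from the lowest of 87. Without replicate 2 of either line it could not be tested.

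MiR-181b, left out of the tests because only 1 heterozygous array had a value, gave -5.28 and -5.90 in line 1 and -4.94 and -5.07 in line 2. Among the 4 microRNAs with values on all knockout arrays it had the narrowest spread. In the fit without a filter on missing values its mean of -5.30 was called lower (limma adjusted p = 0.000211), as were 88.5% of the 113 microRNAs tested there.

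MiR-128a, another brain microRNA, gave -5.43 and -6.42 in line 1 and -4.46 and -8.31 in line 2. The value of -8.31 was the lowest of any of the 7 probes and differed by -3.85 from the other array of the same line, so that the near agreement of the line means (-5.92 and -6.38) does not reflect the spread between arrays. Its mean over lines was -6.15, called lower in the fit without the filter (limma adjusted p = 1.3e-05).

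The arms of the miR-9 hairpin, of neural progenitors, could be compared on replicate 2 of line 1, where miR-9 was at -5.62 and miR-9* at -5.47. MiR-9* had a further value of -3.06 in line 2, the highest knockout value of the 7 probes. Without the filter its mean of -4.26 was called lower (limma adjusted p = 0.00557) from 1 array per line. Neither arm had a value on a heterozygous or feeder array, and miR-9, with a value on an array of 1 line only, was not tested.

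**Figure D2:**
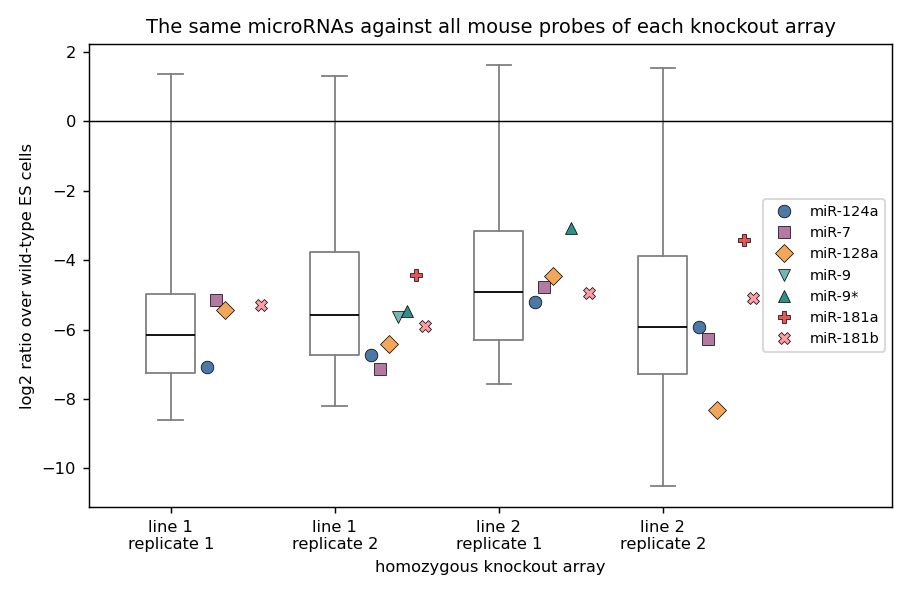
Log2 ratios over wild-type ES cells on each of the 4 homozygous knockout arrays; boxes give the median and quartiles of all mouse probes with a value and whiskers their full range, and symbols to the right of each box are the 7 probes. MiR-181a lies above the upper box edge on line 2 replicate 2 (-3.42), and miR-128a falls to -8.31 on the same array.

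The heterozygous cells addressed whether 1 remaining Dgcr8 copy is enough for these microRNAs. The 11 values of the 5 measured probes lay between -0.46 and 0.33, 6 of them below 0. None of the 3 tested microRNAs was called (limma, 0 of 3, and 0 of 3 with an unadjusted p under 0.05), where 0% of the 87 were called and 7 had an unadjusted p under 0.05. The mean of miR-124a was -0.07, with a 95% interval from -0.78 to 0.64. That of miR-7 was -0.15 (-0.64 to 0.35). That of miR-181a was -0.03 (-0.85 to 0.79), from -0.26 on replicate 1 and 0.20 on replicate 2. MiR-128a gave -0.25 and -0.29 on replicates 2 and 3, and miR-181b 0.33 on replicate 2. Without the filter neither was called (limma adjusted p = 0.91 and 0.934), where 0.794% of 126 microRNAs were called lower and 0.794% higher. The intervals of the 3 tested microRNAs thus leave room for changes of up to about 0.85 log2 units either way.

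Comparing the knockout with heterozygous cells removes the shared reference. The 3 tested microRNAs were again lower, miR-124a by -6.17, miR-7 by -5.69 and miR-181a by -3.89 (limma, adjusted p at or below 0.000472), with 90.8% of the 87 called lower. Without the filter miR-128a (-5.88, limma adjusted p = 2.55e-05) and miR-181b (-5.63, adjusted p = 0.000479) were called lower too, with 90.4% of 104. For miR-181b the heterozygous side is a single array, which the fit assumes to vary like the other groups. For all 5 probes with values in both groups, every knockout array lay below every heterozygous array, which held for 91.2% of 113 mouse probes. After centring, the differences were 0.26 for miR-124a, 0.73 for miR-7 and 2.47 for miR-181a, the last called higher, as were 31 of the 87 (13 lower).

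Of the 5 neural probes, miR-124a and miR-7 had values on the feeder arrays. Both fell in feeders relative to wild-type ES cells, and miR-181a rose (limma), where 36.8% of the 87 tested microRNAs were called lower and 36.8% higher. These 3 calls were made under every alternative that could test the microRNA, centring included.

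MiR-124a was at -5.33 and -5.15 on the feeder arrays, a mean of -5.24 ± 0.13 (SD, n = 2 arrays; limma adjusted p = 0.00022) and a 37.8-fold lower signal than in wild-type ES cells. MiR-7 was at -3.33 and -3.55, a mean of -3.44 ± 0.16 (SD, n = 2 arrays; limma adjusted p = 0.000298), or 10.9-fold lower. MiR-124a minus miR-7 was -2.004 on feeder replicate 1 and -1.599 on replicate 2. The replicates agree more closely here than the knockout arrays do. For the tests the 2 feeder arrays were averaged to 1 value, so these SDs are not the spread behind the p-values.

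MiR-181a was at 4.19 and 2.46 on feeder replicates 1 and 2, both far above its heterozygous values of -0.26 and 0.20. The mean was 3.32 ± 1.22 (SD, n = 2 arrays; limma adjusted p = 0.0017), a 10.0-fold higher signal, and it ranked 78th from the lowest of 87. MiR-181b followed at 2.85 and 1.30, a mean of 2.07 ± 1.10 (SD, n = 2 arrays) or 4.21-fold, and was called higher in the fit without the filter (limma adjusted p = 0.00604), with 55.7% of 131 microRNAs. For both, replicate 1 was the higher array, and replicate 2 minus replicate 1 was -1.73 for miR-181a and -1.56 for miR-181b, where the median over all mouse probes was -0.69. Both feeder arrays lay above every heterozygous array for these 2 microRNAs, as for 56.5% of 115 mouse probes, and below them for miR-124a and miR-7, as for 33.0%. The size of the miR-181 ratio in feeders therefore depends on the array. The gap between the 2 feeder arrays does not enter the p-values, since both were averaged to 1 value before the fit.

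**Figure D3:**
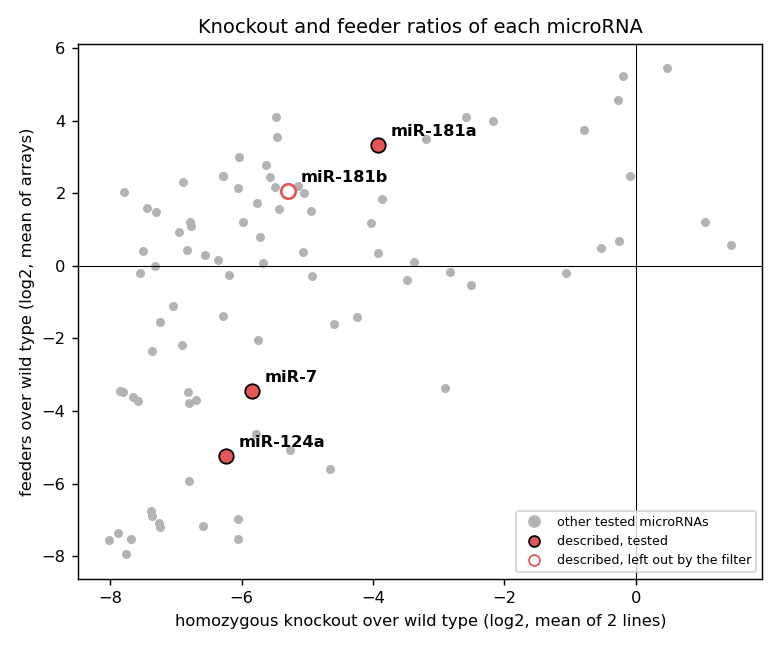
Mean log2 ratio in the homozygous knockout (horizontal axis, 2 lines) against the mean in feeders (vertical axis), both over wild-type ES cells, for the tested microRNAs (grey) with miR-124a, miR-7 and miR-181a in red and miR-181b, which the filter left out, as an open circle. The 4 lie left of 0, between -6.24 and -3.92, but split in feeders, with both miR-181 probes above 0 and miR-124a and miR-7 below it.

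The study profiled feeders to ask whether signal left in knockout cells could come from carried-over fibroblasts, and the knockout was therefore set directly against them. MiR-181a was lower in the knockout than in feeders by -7.24 (limma adjusted p = 0.000112) and miR-7 by -2.40 (adjusted p = 0.00226), where 75.9% of the 87 microRNAs were called lower. MiR-124a differed by -0.99, with a 95% interval from -2.50 to 0.51, and was not called (limma adjusted p = 0.187). Its knockout arrays, from -7.08 to -5.19, overlap its feeder arrays. MiR-181b differed by -7.37 and was called lower in the fit without the filter (limma adjusted p = 0.000115), with 77% of 100 microRNAs. Every knockout array lay below both feeder arrays for miR-181a, miR-181b and miR-7, 3 of the 4 with values in both groups, as for 79.8% of 109 mouse probes. After centring, miR-181a was still lower in the knockout (-1.41), but the direction turned for miR-124a (4.83) and miR-7 (3.43), both then called higher. At that setting 40 of the 87 were called higher and 23 lower.

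As a share of the feeder signal, the knockout signal was 0.66% for miR-181a and 0.605% for miR-181b. With feeder replicate 1 alone the shares were 0.362% and 0.353%, and with feeder replicate 2 alone 1.20% and 1.04%. Of the 16 fibroblast probes, the 9 measured in both lines and in feeders had shares from 0.189% to 1.07%, with a median of 0.295%. Both miR-181 shares of the feeder mean lie within that range, which was not taken for single feeder arrays. The range is not particular to microRNAs high in feeders. MiR-15b, at -0.20 in feeders over wild type, was lower in the knockout than in feeders by -7.35, beside -7.24 for miR-181a. In this difference miR-181a ranked 23rd from the lowest of the 87. Of the 16 fibroblast probes, 7 to 10 had a value on each knockout array, with medians from -6.60 to -4.61. Of the 7 probes for miR-143, miR-145, miR-199a, miR-199a* and miR-214, which had ratios from 3.35 to 6.82 in feeders, 1 (miR-145) had a value on any knockout array. The part of feeder RNA in the remaining miR-181 signal was not tested. For miR-7 the share was 19.0% and for miR-124a 50.2%, both microRNAs with a lower signal in feeders than in wild-type ES cells.

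**Figure D4:**
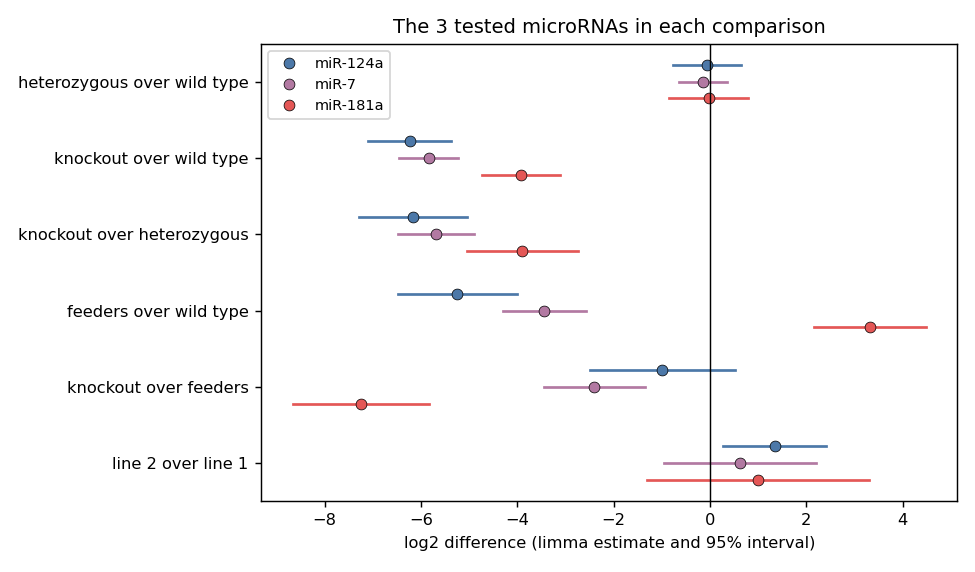
Limma estimates (points) with 95% intervals (lines), in log2, for miR-124a, miR-7 and miR-181a in 6 comparisons. The intervals of heterozygous cells over wild type cover 0 and those of the knockout over wild type and over heterozygous cells lie below it. Against feeders the knockout interval of miR-124a covers 0 (-2.50 to 0.51), and in feeders over wild type miR-181a lies above 0 where the other 2 lie below.

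The 2 knockout lines were independent, and the microRNAs were compared between them over single arrays. No member was called (limma, 0 of 3, and 0% of 87), and 1 of the 3 had an unadjusted p under 0.05, against 13 of the 87. MiR-124a was higher in line 2 by 1.34, with a 95% interval from 0.28 to 2.41 (limma adjusted p = 0.23). MiR-181a differed by 1.00 (-1.30 to 3.30) from 1 array per line, and miR-7 by 0.62 (-0.96 to 2.19). The median difference of all 87 was 0.29. Of the microRNAs without a test, miR-181b differed by 0.58, miR-128a by -0.46 and miR-9* by 2.41. These intervals come from the spread between single arrays, pooled over all 9, and not from replicate cultures of a line.

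Duplicate arrays of a line carried opposite dyes, and for some probes they differed more than the lines did. Replicate 2 lay below replicate 1 for miR-7 in both lines, by -1.98 and -1.51, and for miR-128a by -0.99 and -3.85. MiR-124a moved by 0.35 in line 1 and -0.74 in line 2, and miR-181b by -0.62 and -0.14. Over all mouse probes the median of this difference was 0.07 in line 1 and -0.72 in line 2. A term for the dye changed no call of the 3 tested microRNAs.

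The pair with a shared seed, miR-181a and miR-181b, lay below 0 on every knockout array and above 0 on both feeder arrays wherever a value was present. MiR-181a had the higher ratio on 4 of the 5 arrays that held both probes, by 1.47 in line 1, 1.65 in line 2 and 1.34 and 1.16 in feeders, and the lower one on heterozygous replicate 2 (-0.13). As a description, the knockout ratio was thus less reduced for miR-181a, and feeders exceeded wild-type ES cells by more for miR-181a than for miR-181b. With 3 differing bases between the mature sequences, binding of one microRNA to the probe of the other was not tested. The probe named miR-213, after the later arm of Mir181a-1, had 2 values, 0.53 on heterozygous replicate 2 and -1.87 on replicate 2 of line 1. On that knockout array miR-181a was at -4.42.

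Of 18 further neural probes, 9 had no value on any array and 4 were tested, whereas 40 of all 195 mouse probes had no value on any array. In the knockout 2 of the 4 fell (limma), where 89.7% of the 87 were called lower. These were miR-183 (-7.26) of sensory cells and miR-134 (-5.07) of dendrites, while miR-125b (-2.18) and miR-138 (-0.52) did not pass. The mean of miR-125b joins unlike lines, with 0.26 on the single array of line 1 that held a value and -4.90 and -4.34 in line 2. The median of the 4 was -3.62, beside -5.98 for all 87. In feeders miR-183 fell (-7.09) and the other 3 did not pass, with miR-125b at 4.004. Of the 87, 36.8% were called lower in feeders and 36.8% higher. None of the 4 was called in heterozygous cells (limma, 2 with an unadjusted p under 0.05), where 0% of the 87 were called. Of 7 probes for microRNAs of lymphocytes and other blood cells, 3 had no value on any array and miR-150 alone was tested. MiR-150, of mature lymphocytes, fell in the knockout (-5.78) and in feeders (-4.64, limma), where miR-181a rose.

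Likeness of pattern was measured as the Euclidean distance, in log2 units, between the 4 group means (heterozygous, line 1, line 2 and feeders) over 98 mouse probes with values in each group, the members included. Nearest to miR-124a were miR-150 (1.14), miR-96 (1.59) and miR-19a (1.68), and nearest to miR-7 were miR-130b (1.40), miR-19a (1.43) and miR-150 (1.47). MiR-181a was nearest to miR-31 (1.23), miR-335 (1.85) and miR-324-5p (2.04). Nearest to miR-181b were miR-28 (0.65), miR-154 (0.77) and miR-210 (0.85). The distance between miR-124a and miR-7 was 1.96, that between miR-181a and miR-181b 2.36, and that between miR-124a and miR-181a 9.17, most of it from the feeder means of -5.24 and 3.32.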

How the data were processed

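The deposited table held 1 log ratio per probe and array, which the authors had normalised on positive control RNAs, per the series text. The scanner, the background correction and the rule for rejected spots were not found in the labels. The unit of the deposited values was read as log10, because each of the 90 lowest values on the second array of line 1 (ratios under 0.05) converts to a ratio with 4 decimals. The other arrays do not show their base, log10 was assumed for them, and all folds depend on it. Spreadsheet errors (2 and 1 cells, other unit, deposited among the log10 ratios of line 1 replicate 1 and feeder replicate 1) and null cells were taken as missing. Values were multiplied by 3.3219 to give log2.

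Limma 3.58.1 (lmFit, eBayes; R 4.3.3, statmod 1.5.0) was fitted to 6 values per probe: 3 heterozygous arrays and the means of each line's and of the feeders' arrays. Wild type was only the reference, so ratios were tested against 0, and the single feeder value borrowed its spread from the other groups. Benjamini-Hochberg adjustment ran over all 87 probes, with a threshold of 0.05. Lines were compared over the 9 single arrays. The fit was tested on simulated data. Every probe the name rule found is named, with the 3 nearest probes of each member measured in all 4 groups. Members and lists were chosen with earlier results of these data known.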

Additional observations from a re-analysis of the deposited data

Results flagged for a closer look

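The knockout and feeder ratios over wild type differed by limma's test of the difference for miR-181a (-7.24) and miR-7 (-2.40). The difference for miR-181a joins knockout values below 0 and feeder values above it, whereas miR-7 lay below 0 in both, and its difference turned to 3.43 after centring. For miR-181b every knockout array lay below 0 and both feeder arrays above it, a difference of -7.37. It was not tested with the filter on missing values and was called without it.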

How the results depend on the processing

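Counts of called members are out of those that each setting could test. For centring, each array's median over the 58 mouse probes with values on all 9 arrays was subtracted. In the knockout over wild type 1 member (miR-181a, higher) was then called in place of 3. The same held for the knockout over heterozygous cells. Centring turned the knockout over wild type to 0.24 for miR-124a, 2.56 for miR-181a and 0.64 for miR-7, the knockout over heterozygous cells to 0.26, 2.47 and 0.73, and the knockout over feeders to 4.83 for miR-124a and 3.43 for miR-7, so that 1 member was lower and 2 were higher there in place of 2 lower. These signs depend on the probes that set the centre. In the knockout over wild type the 58 probes had a median of -6.46, lower than the -5.98 of all 87 tested. MiR-124a, at -6.24, lay between these medians, and miR-7 (-5.84) and miR-181a (-3.92) lay above both. Without the filter on missing values, 6 members were called in the knockout over wild type and 5 in the knockout over heterozygous cells, since more could be tested. With values on all 9 arrays required, 1 was called in the knockout over feeders, as miR-181a could not be tested. Leaving out 1 array at a time gave 1 to 2 called members in the knockout over feeders, 1 without heterozygous replicate 1 or 2 or replicate 2 of either line, where miR-181a again could not be tested. It gave 2 to 3 in the knockout over wild type, in feeders and in the knockout over heterozygous cells, and 0 in the other comparisons. Single arrays, a random block for the culture, a dye term and the averaging of heterozygous arrays in pairs changed no call of a member.

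Replicate numbers were not taken to pair the arrays, since pairing was to need r above 0.1 in every pair of groups. The differences of replicate 2 from replicate 1 correlated with r from 0.04 to 0.42 over 68 to 84 probes, above 0.1 in 4 of 6 pairs of groups and in all 3 among the knockout lines and feeders. As replicate 2 has the opposite dye orientation to replicate 1 in every group, a shared number and a shared orientation cannot be told apart. With the replicate block 3 members were called in the knockout over wild type, as without it, with miR-124a at -6.19, miR-181a at -3.57 and miR-7 at -5.89, and no call of a member changed. Signal over background is unknown, so a missing value gives no bound.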
